A study of Gallus gallus with 4 samples.

Results

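Transcripts of 8 neural genes were described in the primitive streak region of chicken embryos that carried a HoxA13 vector or a reporter vector. The genes are SOX2, PAX6, NES and FABP7, which mark the neural plate and neural progenitors, BRINP1 and PTN, a neural-specific inhibitor of cell division and a secreted growth factor, and CNTN4 and SYP, an axonal adhesion molecule and a synaptic vesicle protein. Every probe set that the platform annotation gives one of these symbols was taken, which made 15 of the 37695 chicken probe sets and 8 of the 13009 named genes. The genes were chosen by a rule written with earlier measured differences between HoxA13 and Control on these same arrays known, so those differences are given here as a description of the genes and are not tested on them.

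HoxA13 is a posterior Hox transcription factor that is normally switched on late in the elongating body axis. In the HoxA13 group it was overexpressed from a vector with the CAGGS promoter, which is active in most cell types, together with the nuclear fluorescent reporter H2B-Venus. The Control group received H2B-Venus alone. Embryos of both groups were electroporated at stage 5 of Hamburger and Hamilton after 24 h at 38 °C, grown in culture for 14 h more, and dissected at 9 somites. Each of the 4 arrays, 2 per group, held RNA from a pool of 7 embryos. The labels name no sorting of cells by the reporter, so each value is a mean over electroporated and other cells of the dissected piece, and a change in the number of cells of one type cannot be told apart from a change in RNA per cell. No probe set was tied to the vector's own HoxA13 transcript, so the labels of the groups were not checked by it.

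The streak region at this stage lies beside the caudal epiblast, whose cells are known to feed both the spinal cord and the presomitic mesoderm. Such cells carry the neural factor SOX2 at a low level together with the mesodermal factor TBXT. As neural tissue forms, SOX2 is maintained, PAX6 is switched on in the spinal cord progenitors, and the intermediate filament protein nestin (NES) and the lipid-binding protein FABP7 mark the dividing neuroepithelial and radial glial cells. SYP and CNTN4 belong to later neurons, where they are found in synaptic vesicles and on the axon surface.

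The values are linear intensities of probe sets of a one-colour Affymetrix array. Background was set on each array at the 99th percentile of its probe sets for viral genes, which gave 14.3 and 14.5 on the HoxA13 arrays and 12.8 and 16.5 on the Control arrays. Differences are given on the log2(intensity + 16) scale, HoxA13 minus Control, which understates the change of dim probe sets. A fold comes from mean log2 intensities without that offset. Where one group was below background throughout, its arrays were raised to their background and the fold is written "at least". Differences are given within replicate number 1 and within replicate number 2, because the hybridisation spike-ins, bacterial and phage RNAs added to every sample, separated the arrays by that number. All 27 probe sets for these RNAs, several of which measure the same RNA, were brighter on both replicate 2 arrays, by a median log2 intensity of 0.75. Their median difference between HoxA13 and Control was -0.03. What the number stands for is not stated in the labels.

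The dissected tissue carried the transcripts of the streak. TBXT, the T-box factor of the streak, had intensities of 6483 and 5820 on the HoxA13 arrays, against 5873 and 5508 on the Control arrays. Of 11 measured streak and presomitic mesoderm markers 9 exceeded background on at least 2 arrays, and TBX6 and MIXL1 were below it on all 4.

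The neural progenitor genes, BRINP1 and PTN were brighter on the HoxA13 arrays than on the Control arrays of the same replicate number in each case, and the 2 genes of neuronal adhesion and vesicles were dimmer. Of the 15 probe sets, 10 exceeded background on 2 or more of the 4 arrays, at least 1 for each gene. Among these 10, 8 were higher on the HoxA13 array within both replicate numbers and 2 were lower within both. Over all 15818 probe sets above background on at least 2 arrays, 30.6% were higher within both numbers and 24.6% lower within both. The groups did not overlap for 7 of the higher probe sets and both lower ones, where 18.3% of all probe sets lay above Control without overlap and 14.7% below. A difference of at least 1 in both numbers was found for 5 higher and 2 lower, against 0.164% and 0.499% of all probe sets. Since the genes were chosen with this comparison known, nothing is read from these shares.

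**Figure D1:**
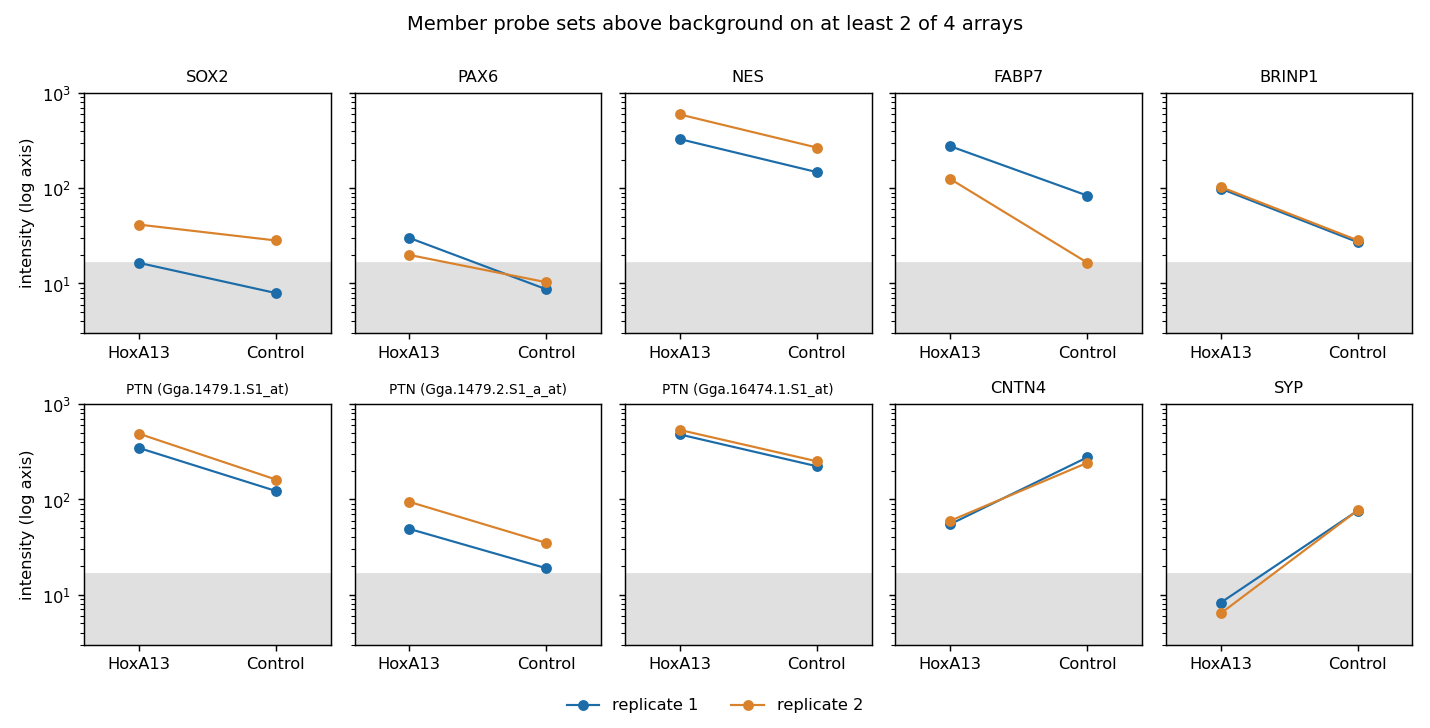
Intensity (log axis) of the 10 probe sets above background on at least 2 arrays, with HoxA13 left of Control and a line joining the arrays of one replicate number. The grey band ends at 16.5, the highest background of the 4 arrays, and HoxA13 replicate 1 of SOX2 lies at that edge but above the background of its own array, 14.3. SOX2, NES and FABP7 differ between the lines of the 2 replicate numbers, while BRINP1, CNTN4 and SYP have lines that lie almost on each other.

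SOX2, the HMG-box factor that keeps neural progenitors undifferentiated, was dim. Its single probe set had intensities of 16.5 and 41.5 on the HoxA13 arrays, against 7.94 and 28.3 on the Control arrays, with replicate 1 before replicate 2 as in all values that follow. The groups overlapped, since the brighter Control array exceeded the dimmer HoxA13 array, and Control replicate 1 was below its background. Within the numbers the difference was 0.44 and 0.38, of which the first rests on the Control value below background, so no fold is given. Both replicate 2 arrays were brighter than both replicate 1 arrays, by 2.52-fold in the HoxA13 group and 3.56-fold in the Control group, so the spread between pools was larger than the difference between the groups. Without HoxA13 replicate 2 the mean difference was -0.0036, and without Control replicate 1 it was -0.035, while leaving out HoxA13 replicate 1 or Control replicate 2 gave 0.82 or 0.85.

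PAX6, the paired-box factor of spinal cord and eye progenitors, was near the limit of detection. It gave intensities of 30.1 and 19.9 on the HoxA13 arrays, against 8.69 and 10.3 on the Control arrays. Both HoxA13 arrays were above background and both Control arrays below it, so that PAX6 was at least 1.68-fold higher. It entered the set of 15818 probe sets only through its HoxA13 arrays. Its difference was 0.90 in number 1 and 0.45 in number 2.

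NES codes for nestin, and its chicken entry is also listed as paranemin in the RefSeq gene table. The probe set had intensities of 328 and 595 on the HoxA13 arrays, against 148 and 267 on the Control arrays, or 462 ± 189 in the HoxA13 group and 208 ± 84.7 in the Control group (mean ± SD, n = 2 each). The brighter array in each group was replicate 2, by 1.81-fold in both groups. The ratio of HoxA13 to Control was therefore steady, at 2.22 in number 1 and 2.23 in number 2, although the SD within each group was large.

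FABP7, the brain lipid-binding protein of radial glia, had the greatest spread between replicates of the 10 probe sets on the log2 scale. It gave 276 and 125 on the HoxA13 arrays, against 83.8 and 16.6 on the Control arrays, of which the last was barely above its background of 16.5. Both HoxA13 arrays lay above both Control arrays, and the mean fold was 4.99. Here the replicate 1 arrays were the brighter ones, by 2.21-fold in the HoxA13 group and 5.06-fold in the Control group, the opposite order to SOX2 and NES. The ratio of HoxA13 to Control was 3.30 in number 1 and 7.56 in number 2. The difference of 1.83 ranked as number 3 from the highest among the 15818 probe sets.

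BRINP1 codes for a protein that is induced by bone morphogenetic protein and retinoic acid in the nervous system and slows the cell cycle. Its probe set had intensities of 99.1 and 103 on the HoxA13 arrays, against 27.2 and 28.4 on the Control arrays. The arrays of each group differed by 1.04-fold in the HoxA13 group and 1.05-fold in the Control group. The groups had 101 ± 2.94 in the HoxA13 group and 27.8 ± 0.87 in the Control group (mean ± SD, n = 2 each). Since BRINP1 was chosen with this comparison known, nothing is read from the distance between the groups relative to these SDs. The ratio of HoxA13 to Control was 3.65 and 3.64.

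PTN codes for pleiotrophin, a secreted heparin-binding growth factor of the developing nervous system, and was represented by 3 probe sets, each above background on all 4 arrays. The first had intensities of 347 and 490 on the HoxA13 arrays, against 123 and 162 on the Control arrays. The second and dimmest had 49.1 and 94.4 on the HoxA13 arrays, against 19.0 and 34.9 on the Control arrays. The third had 482 and 537 on the HoxA13 arrays, against 223 and 252 on the Control arrays. None of the 3 overlapped between the groups, and all were higher in both numbers. The mean fold was 2.93, 2.64 and 2.15 in the order given, so the probe sets of this gene gave one direction and sizes within 1.5 times of each other. All 3 were brighter on the replicate 2 array of each group, from 1.11-fold to 1.92-fold in the HoxA13 group and from 1.13-fold to 1.84-fold in the Control group.

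CNTN4 codes for contactin 4, a membrane-anchored immunoglobulin protein of axons, and was represented by 4 probe sets. Only 1 was above background on more than 1 array. It had intensities of 55.0 and 59.7 on the HoxA13 arrays, against 277 and 242 on the Control arrays, all above background, and the groups lay 4.52-fold apart with HoxA13 lower. The ratio of Control to HoxA13 was 5.04 in number 1 and 4.06 in number 2. The other 3 were dim on every array, at most 14.7 on the HoxA13 arrays and 8.77 on the Control arrays, and only 1 of these 12 values exceeded its background. The lower CNTN4 signal therefore stands on a single probe set, and the other 3 carry no measured level to set beside it.

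SYP codes for synaptophysin, a membrane protein of synaptic vesicles. Its chicken entry is also listed under the name SYNPR, the related vesicle protein synaptoporin, in the RefSeq gene table, so the annotation does not settle which of the relatives is meant. The brightest of its 3 probe sets had intensities of 8.24 and 6.36 on the HoxA13 arrays, both below background, against 76.3 and 76.8 on the Control arrays. It was at least 5.32-fold lower in the HoxA13 group, and the Control arrays differed by 1.01-fold. It passed the filter through its Control arrays alone. A second probe set had 0.73 and 16.1 on the HoxA13 arrays, against 2.04 and 1.27 on the Control arrays, and only the 16.1 was above background. The third was below background on all arrays, at 0.75 and 0.52 on the HoxA13 arrays and 1.56 and 0.48 on the Control arrays.

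**Figure D2:**
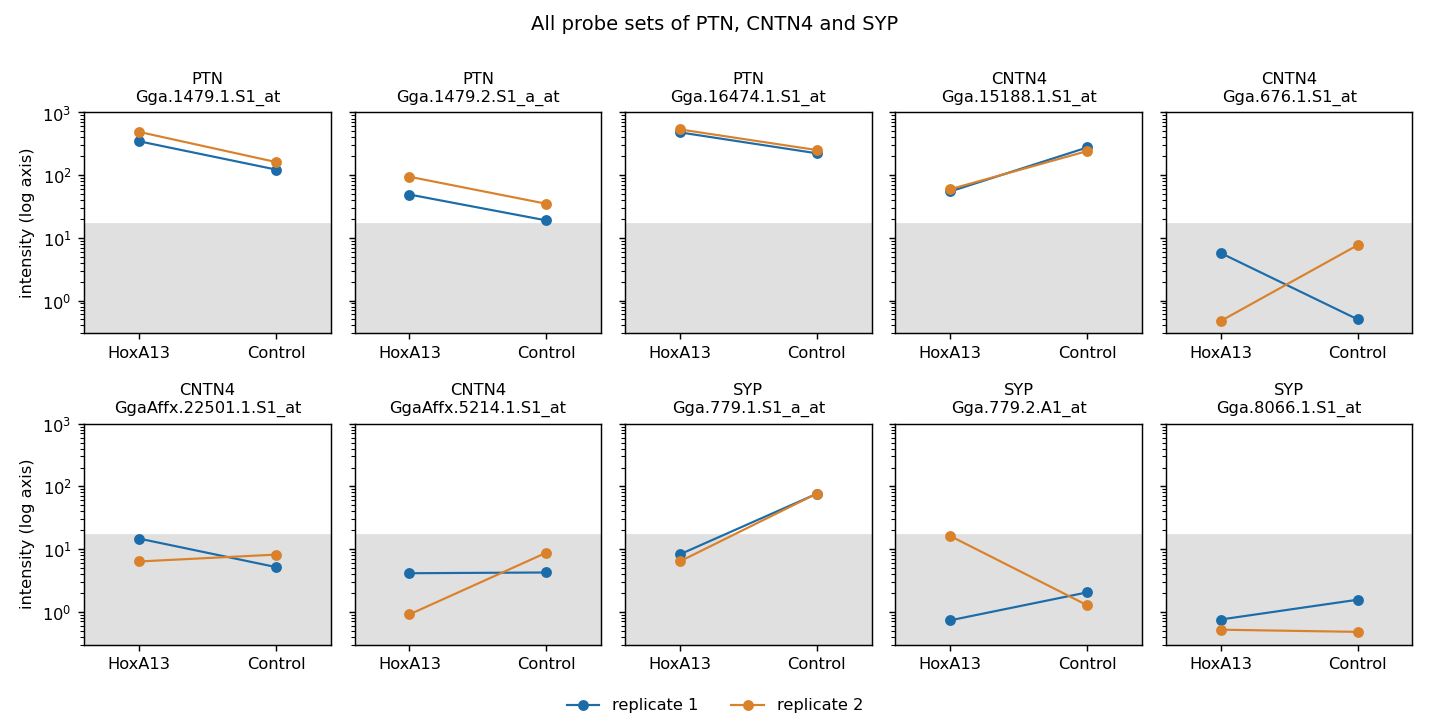
Intensity (log axis) of all probe sets of PTN, CNTN4 and SYP, with HoxA13 left of Control and a line joining the arrays of one replicate number. The grey band ends at the highest background of 16.5. The 3 probe sets of PTN slope the same way, while CNTN4 and SYP each have 1 probe set well above the band in the Control group and others within it.

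The one comparison of the design was also fitted over all 15818 probe sets with limma. At an adjusted p of 0.05, 3 probe sets were called higher, 0.019% of those tested, and 10 were called lower, 0.0632%. Of the 10 probe sets of the neural genes 1 was among the calls, that of SYP, called lower. It was chosen with this comparison known and entered the fit through its Control arrays alone, so the call is no test of SYP and nothing is read from it.

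**Figure D3:**
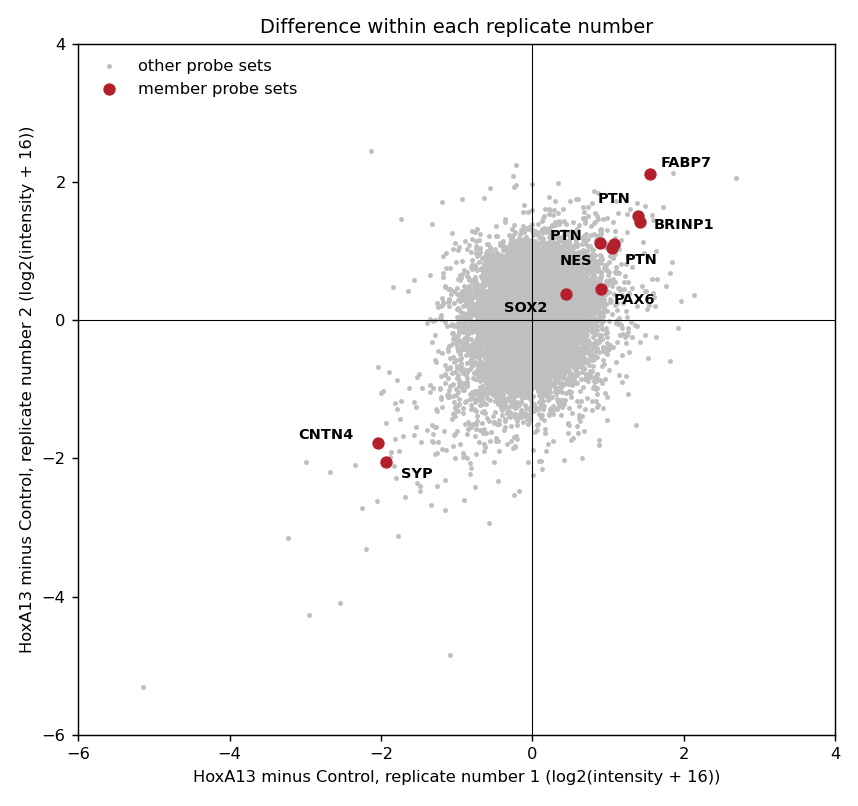
HoxA13 minus Control on the log2(intensity + 16) scale within replicate number 1 (horizontal) and number 2 (vertical), for 15818 probe sets (grey) with the 10 of the neural genes in red. CNTN4 lies at -2.04 and -1.77 and SYP at -1.93 and -2.05, outside the bulk of the grey points as does FABP7, while SOX2 at 0.44 and 0.38 lies within it.

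The members did not share one profile over the arrays. On the same log2 scale, FABP7 was 1.05 lower on replicate 2 than on replicate 1 in the HoxA13 group and 1.62 lower in the Control group. SOX2 was 0.83 higher on replicate 2 in the HoxA13 group and 0.89 higher in the Control group, and NES 0.83 higher in the HoxA13 group and 0.79 higher in the Control group. The same difference for BRINP1 was 0.05 in the HoxA13 group and 0.04 in the Control group, and for CNTN4 it was 0.09 in the HoxA13 group and -0.18 in the Control group. Profiles were compared by the Euclidean distance between log2(intensity + 16) values of the 4 arrays, each centred on its own mean. By this measure the nearest named genes to SYP were CNTN4, at 0.22, the chemokine gene CXCL12, at 0.24, and MTUS1, at 0.32. SYP was in turn the nearest to CNTN4, followed by CXCL12 at 0.29 and the germ cell helicase gene DDX4 at 0.36. CXCL12 had intensities of 7.94 and 10.1 on the HoxA13 arrays, against 72.1 and 86.8 on the Control arrays.

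The nearest to FABP7 was a probe set of the Ras activator RASGRP3, at 0.31, with 1916 and 966 on the HoxA13 arrays, against 517 and 208 on the Control arrays. GNG10 and SLC25A39 followed at 0.58 and 0.61. Another RASGRP3 probe set was nearest to BRINP1, at 0.21, followed by GPRIN2 at 0.21 and the versican gene VCAN at 0.21. A PTN probe set was among the 3 nearest to NES, at 0.20, behind REL at 0.12 and ahead of FBXW5 at 0.25. For the brightest PTN probe set they were DDX54 at 0.17, LOC107056277 at 0.17 and CD226 at 0.19. FDFT1 at 0.03, LOC424998 at 0.08 and EWSR1 at 0.11 were nearest to SOX2, and ATP13A1 at 0.04, LRRC45 at 0.06 and EPB41L3 at 0.10 to PAX6. With 4 arrays such likeness is easily met. Within a distance of 0.5 there were 499 other probe sets for SOX2, 1168 for PAX6 and 220 for the brightest of PTN. The counts were 38 for NES, 26 for BRINP1, 8 for SYP, 7 for CNTN4 and 1 for FABP7. These profiles include the difference between HoxA13 and Control that was known when the members were chosen. Nothing is therefore read from the low counts, or from CNTN4 and SYP being nearest to each other.

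Other neural genes did not move in one direction as a body. Across 5 lists of neural genes and relatives, 98 of 124 listed genes were measured, each by its brightest probe set, and 50 were above background on at least 2 arrays. None of the 50 was called higher or lower by limma at an adjusted p of 0.05, and 4 had an unadjusted p under 0.05, or 8.0%, beside 5.14% of all probe sets tested. Within both numbers 14 were higher and 15 lower, and 21 went opposite ways. Their median difference was 0.02, and that of all 15818 probe sets was 0.03. The genes named below from these lists are mostly those with the smallest unadjusted p or a close relation to a member. Apart from CNTNAP5 they were picked after their values were seen.

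Among transcription factors of the neural plate, 8 of 16 measured were below background on all 4 arrays. These included SOX1, the forebrain factors OTX2 and SIX3, and the dorsal factors PAX3, PAX7 and ZIC1. Of the other 8, 1 was higher and 2 lower within both numbers, with a median difference of -0.05. SOX3, the close relative of SOX2 in the early neural plate, had 179 and 78.8 on the HoxA13 arrays, against 160 and 134 on the Control arrays, and went opposite ways in the 2 numbers. NKX6-1, a ventral spinal cord factor, had 35.9 and 70.7 on the HoxA13 arrays, against 31.6 and 26.6 on the Control arrays (limma adjusted p = 0.999). SALL4, a factor of undifferentiated cells, had 186 and 84.3 on the HoxA13 arrays, against 208 and 234 on the Control arrays.

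Of 15 progenitor and Notch pathway genes above background, 3 were higher and 6 lower within both numbers. CDH2, the N-cadherin of neuroepithelium and mesoderm, had 2373 and 2115 on the HoxA13 arrays, against 1439 and 1052 on the Control arrays (limma adjusted p = 0.384). Its difference was 0.86, and without Control replicate 1, with a single Control array left, it was 1.08. VIM, the filament protein with which nestin assembles, went the other way from NES, with 1132 and 1089 on the HoxA13 arrays, against 1684 and 1291 on the Control arrays. HES5, a Notch target in neural progenitors, had 115 and 125 on the HoxA13 arrays, against 99.4 and 49.6 on the Control arrays. The Notch pathway genes HEY1, NOTCH1 and NOTCH2 were instead lower in both numbers, with mean differences of -0.55, -0.24 and -0.25. DLL1 and HES6 went opposite ways in the 2 numbers, with mean differences of 0.40 and 0.29.

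Genes that start or mark neuronal differentiation were mostly undetected, as were most chicken probe sets (37.8% to 42.7% above background per array). Of 20 measured, 12 were below background on all arrays, among them the proneural factors NEUROG1, NEUROG2, NEUROD1 and ATOH1 and the neuronal genes GAP43, MAP2 and ISL1. Of the 8 others, 4 were higher and 2 lower within both numbers, with a median difference of 0.22. The neurofilament gene NEFM had 704 and 482 on the HoxA13 arrays, against 218 and 416 on the Control arrays, and the neuronal tubulin gene TUBB3 had 32.9 and 18.4 on the HoxA13 arrays, against 9.27 and 4.30 on the Control arrays. Neither was called (limma adjusted p = 0.82 for both), and TUBB3 entered the fit through its HoxA13 arrays alone. DCX, a microtubule protein of young neurons, had 282 and 211 on the HoxA13 arrays, against 178 and 144 on the Control arrays. The 2 lower genes were dim. STMN2 had 19.2 and 6.67 on the HoxA13 arrays, against 26.6 and 20.7 on the Control arrays. NHLH1 had 13.0 and 14.2 on the HoxA13 arrays, against 24.4 and 25.0 on the Control arrays. ELAVL4 and LHX3 went opposite ways.

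Of 21 measured synaptic genes, 10 were below background on all arrays, among them the vesicle fusion genes SNAP25 and VAMP2. The 10 above background on at least 2 arrays split into 4 higher, 2 lower and 4 opposite, with a median difference of 0.07. Relatives of SYP were smaller in their differences, but SYP was chosen with its difference known, so nothing is read from that. SYPL1 had 75.6 and 126 on the HoxA13 arrays, against 120 and 160 on the Control arrays, and SYNGR3 had 41.4 and 38.4 on the HoxA13 arrays, against 73.0 and 62.7 on the Control arrays. Both were lower in both numbers and neither passed (limma adjusted p = 0.999 and 0.992). SYNGR2 was higher in both numbers, with 196 and 290 on the HoxA13 arrays, against 175 and 280 on the Control arrays, a difference of 0.10. SYPL2 and SYNGR1 were below background on all arrays.

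Of 24 measured relatives and partners of the members, 11 were below background on all arrays, among them BRINP3 and the contactins CNTN1, CNTN3, CNTN5 and CNTN6. MDK codes for midkine, the sister growth factor of pleiotrophin. It had 215 and 224 on the HoxA13 arrays, against 265 and 180 on the Control arrays, a difference of 0.00. The PTN probe sets had between 1.01 and 1.45, but PTN was chosen with its difference known, so nothing is read from the contrast. SDC3, a heparan sulphate receptor for pleiotrophin, had 37.1 and 101 on the HoxA13 arrays, against 27.4 and 50.04 on the Control arrays. FABP5, a relative of FABP7, had 71.6 and 65.6 on the HoxA13 arrays, against 126 and 92.8 on the Control arrays, and was lower in both numbers. CNTNAP5, a contactin-associated protein gene, was the 1 gene of the 5 lists with a mean difference of at least 1 in size and one direction in both numbers. It had 27.5 and 22.1 on the HoxA13 arrays, against 48.8 and 276 on the Control arrays, a difference of -1.76, with Control replicate 2 far above the 3 other arrays (limma adjusted p = 0.73). Without Control replicate 1 the difference was -2.84, which rests on Control replicate 2 as the single Control array left.

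**Figure D4:**
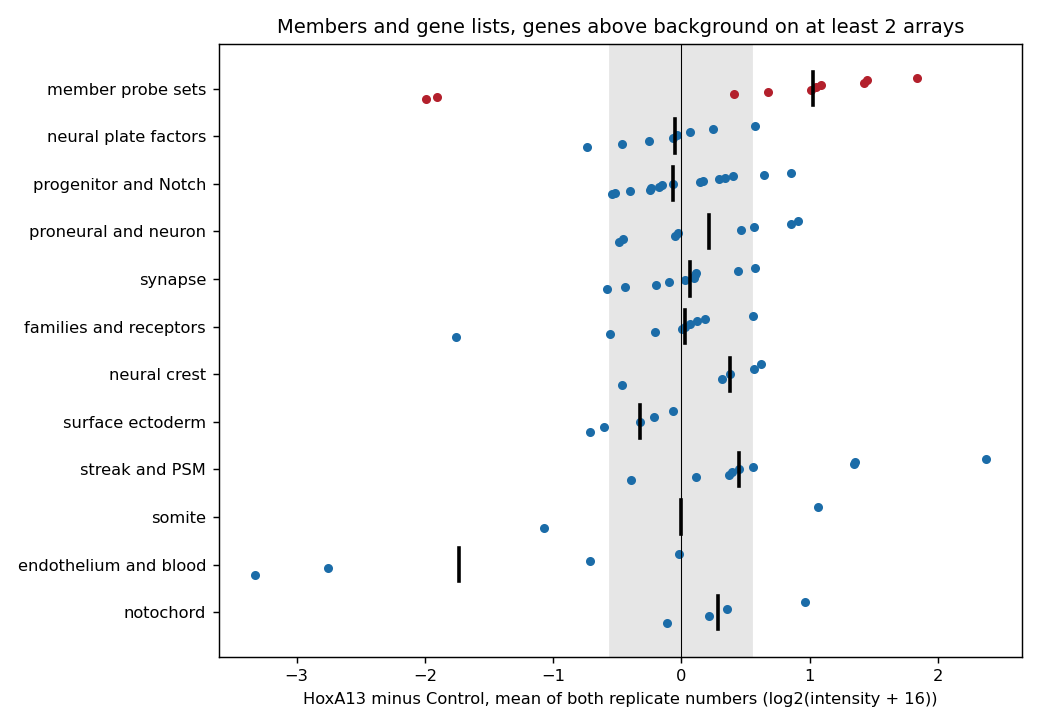
HoxA13 minus Control on the log2(intensity + 16) scale, averaged over both replicate numbers, for the member probe sets (top, red) and for genes of 11 lists (blue), all above background on at least 2 arrays. Black bars are medians and the grey band holds the middle 90% of all 15818 probe sets, from -0.56 to 0.55. Most genes of the neural lists lie within the band. To its right lie NEFM, TUBB3, CDH2, HES5, NKX6-1, SYN2, DCX and SDC3, and to its left CNTNAP5, SALL4 and SYNGR3. Of the 10 member probe sets 9 lie outside it, 7 to the right and 2 to the left, and SOX2 lies within. The members were chosen with this difference known and the lists leave them out, so nothing is read from their place beside the lists.

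Markers of other cell types were summed as lists, so the brightest genes weigh most in each sum. These lists were drawn up with earlier results of these data known, so their shares are a description only. The summed intensity of 9 measured endothelium and blood markers was 124 and 48.5 on the HoxA13 arrays, against 614 and 643 on the Control arrays. HHEX made up most of it on the Control arrays, with 44.2 and 9.39 on the HoxA13 arrays, against 336 and 419 on the Control arrays, and FLT1 had 33.6 and 0.99 on the HoxA13 arrays, against 212 and 153 on the Control arrays. HHEX was called lower by limma (adjusted p = 0.0352) and FLT1 was not (adjusted p = 0.122). Of the 4 genes above background on at least 2 arrays, 3 were lower within both numbers, beside 24.6% of all probe sets. The third was LMO2, with a difference of -0.72 and both HoxA13 arrays below background, while TAL1 went opposite ways and differed by -0.02. PECAM1 was above background on 1 array and lower within both numbers, and KDR, CDH5, FLI1 and HBA1 were below background on all 4. That of 9 surface ectoderm markers was 2198 and 1301 on the HoxA13 arrays, against 3089 and 2336 on the Control arrays. EPCAM gave most of this sum, with 1575 and 1029 on the HoxA13 arrays, against 2603 and 1687 on the Control arrays. Of the 5 surface ectoderm genes above background 2 were lower within both numbers and 3 went opposite ways, and GATA3 was below background throughout.

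The 11 streak and presomitic mesoderm markers summed to 16888 and 16680 on the HoxA13 arrays, against 13843 and 12847 on the Control arrays. Of the 9 above background, 8 were higher within both numbers, beside 30.6% of all probe sets, and MSGN1 was lower. This list too was drawn up with earlier results known, so the share is a description only. The 1 streak gene called was CYP26A1 (limma adjusted p = 0.0481). It had 808 and 443 on the HoxA13 arrays, against 112 and 93.7 on the Control arrays. The call was not made with an offset of 1, without the filter, on probe sets above background on all 4 arrays, or with the plain prior named below. For 10 neural crest markers the sums were 1678 and 1963 on the HoxA13 arrays, against 1382 and 1245 on the Control arrays, while the defining crest factors FOXD3 and SOX9 were below background on all 4 and SOX10 was above it on 1. The 5 notochord markers summed to 211 and 237 on the HoxA13 arrays, against 112 and 174 on the Control arrays, with SHH below background throughout. The sums of 7 somite markers overlapped between the groups, with 74.0 and 122 on the HoxA13 arrays and 87.7 and 125 on the Control arrays. This overlap hides 2 genes that differed in opposite directions, the only ones above background on at least 2 arrays. MEOX1 had 13.6 and 23.1 on the HoxA13 arrays, against 45.5 and 67.3 on the Control arrays. PAX9 had 48.7 and 67.3 on the HoxA13 arrays, against 23.9 and 14.7 on the Control arrays. Neither was called (limma adjusted p = 0.548 and 0.538). The sums were not tested, nor was the part of these cell types in the values of the neural genes.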

How the data were processed

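RNA of 4 pools of embryos was hybridised to a chicken Affymetrix array after a repeated amplification, per the labels' protocols. The authors deposited linear intensities, 1 per probe set and array. R 2.12.1 is named in the submitters' processing notes. How probes were summarised, corrected for background and scaled is not given in the sources used here. The values were used as deposited.

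Of 38535 probe sets, 37695 chicken ones were kept, of which 27168 have 1 symbol in the platform annotation, 177 several and 10350 none. All 8 member genes were matched by Entrez number to the RefSeq gene table (assembly GRCg7b) with the same symbol. The main fit was limma 3.58.1 in R 4.3.3 on log2(intensity + 16), with an intensity trend and robust prior, on probe sets above background on at least 2 arrays, with Benjamini-Hochberg adjustment at 0.05, two-sided. It was also run on simulated arrays with noise drawn independently for each array and changes larger than those of the members. That run does not show how the fit performs on these arrays, and no result is read from it. An exact permutation test of 2 against 2 arrays cannot give a two-sided p below 0.333. The p-values rest on the spread between the 2 pools of each group, moderated over all probe sets in the fit. That spread includes any difference between the replicate numbers, and the number of arrays limits the precision.

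Members, lists and settings were chosen with earlier results of these data known. Named were all members, per neural list any gene that passed or differed by at least 1 in one direction in both numbers, and the 3 genes nearest to each member. Other list genes are examples picked after their values were seen. Sequences of the genes were not used here. The alternatives were the offset, the filter, quantile normalization, the prior, the replicate block and leaving out each array.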

Additional observations from a re-analysis of the deposited data

How the results depend on the processing

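The main fit called 3 probe sets higher and 10 lower. With an offset of 1 the counts were 0 and 2, without a filter 0 and 1, on probe sets above background on all 4 arrays 0 and 0, and with a plain prior 0 and 1. Leaving out 1 array gave from 0 (without HoxA13 replicate 1) to 23 higher (without Control replicate 1) and from 5 (without HoxA13 replicate 2) to 58 lower (without Control replicate 1). The replicate numbers were not taken to pair the samples. Deviations from the group means correlated at 0.30 between arrays of equal number, and with the replicate block 53 were called higher and 107 lower. Of the 5 neural and family lists, 1 gene (CDH2) was called with the block. With the block 7 of the 10 member probe sets were also called, 5 higher and 2 lower, beside 1.01% of all probe sets. The members were chosen with this comparison known, so these calls are no test of them and nothing is read from the share. The 10 member probe sets had 8 positive and 2 negative differences. On probe sets above background on all 4 arrays these were 6 and 1, because SOX2, PAX6 and SYP did not pass that filter. Of 107 member values under the alternatives, 105 kept their sign. The exceptions were SOX2 without HoxA13 replicate 2 or without Control replicate 1. The filter, the prior and the block leave the difference of a probe set unchanged. Where the groups do not overlap, neither the offset nor leaving out an array can turn the sign. Most signs were thus fixed in advance, and nothing is read from the 105. Offsets of 1 and 32 moved PAX6, BRINP1, CNTN4 and SYP by more than their spread between replicates. The SYP call, no test of a gene chosen on this comparison, was also made with quantile normalization and with the block. It was not made in the other alternatives that used all 4 arrays and tested SYP. Dim signal limits PAX6, SOX2 and SYP, for which a group or an array was below background.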
